A study of Mus musculus with 2 samples.

Results

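The cytosolic ribosomal protein genes are the genes named Rpl or Rps followed by a number, together with Rplp0, Rplp1, Rplp2 and Rpsa. They were picked by name among the protein-coding genes of GENCODE M21, without the S6 kinases and without names holding "-ps", which mark pseudogenes. The rule found 86 of 21938 protein-coding genes: 46 for proteins of the large subunit, 31 for proteins of the small subunit, 8 paralogs of such genes, and Rps19bp1, whose product binds ribosomal protein S19 and is not itself a ribosomal protein. The 77 genes of both subunits are called the core genes below.

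Ribosomal proteins wrap and shape the ribosomal RNAs, and a subunit is assembled only when nearly every one of them is supplied in proportion. Their genes lie scattered over the chromosomes, so the matching output comes from many separate promoters. Their mRNAs begin with a C followed by a run of pyrimidines, the terminal oligopyrimidine or TOP motif, through which mTOR signalling controls their translation, and in neurons ribosomes also work far from the cell body in dendrites and axons.

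Chromatin was probed by DNase-seq, in which the nuclease DNase I cuts DNA that is not covered by nucleosomes and the cuts are counted by sequencing. Left cerebral cortex came from female B6CASTF1/J mice, the offspring of a cross between C57BL/6J and CAST/EiJ, aged 18 to 20 months, with no treatment in the labels. The design held 1 group of 2 libraries, library 1 and library 2, and no control or second condition, so every comparison is between genes or between the libraries. The labels give both libraries separate biosamples but the same donor identifier and do not state that they came from separate animals, so their difference may be technical.

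For each library the deposited files gave peaks of open chromatin with a signal, footprints (short stretches inside open chromatin that are protected from cutting, as a bound protein would leave), and the bases whose cut rate had a false discovery rate under 0.05. Library 1 had 132054 peaks and 271439 footprints, and library 2 had 139799 peaks and 323715 footprints. Read totals are not in these values, so the depth is unknown and no counting interval is given. Promoter peaks were present in both libraries at the excitatory cortical neuron genes Slc17a7, Neurod6 and Camk2a, with signals of 1.57 to 3.92 in library 1 and 1.49 to 4.06 in library 2. Of the liver genes, Alb and Fga had no promoter peak in either library and Apob had none in library 1 and a signal of 0.265 in library 2.

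The promoters of highest signal are shown first, because they are the 4 that stand highest by mean signal over both libraries. The stretch of each is 195 bases and is taken from the RefSeq promoter table on GRCm38.p6, read along the strand of the gene, with capitals for the bases that lay in a footprint of both libraries. They belong to Rplp0, the stalk protein of the large subunit, to Rpl9 and Rpl7a, both of the large subunit, and to Rpl23, a large subunit protein that can also bind Mdm2, the regulator of p53.
Rplp0 (chr5:115559297-115559491, + strand): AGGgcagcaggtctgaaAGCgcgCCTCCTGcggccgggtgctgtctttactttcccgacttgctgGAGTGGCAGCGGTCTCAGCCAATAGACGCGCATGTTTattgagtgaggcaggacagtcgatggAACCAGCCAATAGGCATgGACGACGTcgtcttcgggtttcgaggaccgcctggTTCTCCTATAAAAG
Rpl9 (chr5:65391420-65391614, - strand): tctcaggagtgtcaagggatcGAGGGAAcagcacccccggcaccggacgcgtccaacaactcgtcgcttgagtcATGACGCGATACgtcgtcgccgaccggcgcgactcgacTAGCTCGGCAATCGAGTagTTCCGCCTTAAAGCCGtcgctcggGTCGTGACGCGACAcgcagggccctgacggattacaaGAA
Rpl23 (chr11:97782415-97782609, - strand): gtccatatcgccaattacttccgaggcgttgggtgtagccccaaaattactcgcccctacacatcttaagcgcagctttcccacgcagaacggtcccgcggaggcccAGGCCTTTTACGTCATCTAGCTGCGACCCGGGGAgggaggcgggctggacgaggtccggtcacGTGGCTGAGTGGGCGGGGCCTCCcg
Rpl7a (chr2:26910594-26910788, + strand): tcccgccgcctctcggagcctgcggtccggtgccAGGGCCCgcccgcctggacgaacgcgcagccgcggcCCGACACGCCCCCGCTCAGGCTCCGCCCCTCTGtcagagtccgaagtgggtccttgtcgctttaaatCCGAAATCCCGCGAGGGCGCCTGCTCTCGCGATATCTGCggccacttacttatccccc

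In these 4 stretches 89 bases of Rplp0, 69 of Rpl9, 57 of Rpl23 and 79 of Rpl7a were protected in both libraries. The protected bases came in several separate runs and not as a single block. In Rplp0 they covered both CCAAT boxes, the core sequence bound by NF-Y, and the TATAAA motif that begins 17 bases after the table's start. In Rpl23 they reached into the CACGTG motif of E-box proteins at the start and covered the GGGCGG motif that begins 10 bases after it. Rpl9 held none of the 10 motifs searched, although 86 of its 300 promoter bases lay in a footprint of both libraries.

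All 77 core genes had open promoters in both libraries. A promoter was called open where a peak of the longer deposited list lay within 500 bases of any annotated start of the gene. By that rule 83 of 86 ribosomal protein genes, 96.5%, were open in both libraries, where 63.6% of all protein-coding genes were. The same 83 were the ones open in each library, where 64.5% of all protein-coding genes were open in library 1 and 66.5% in library 2. The genes not open were 3 paralogs, Rpl3l, Rpl10l and Rpl39l. Mitochondrial ribosomal protein genes, which serve the separate ribosome of the mitochondrion, were open at 78 of 78, and proteasome genes at 38 of 40, so a fully open set is shared with another housekeeping complex.

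Promoter signal, the deposited signal of the strongest peak in the window with 0 for no peak, had a median of 5.03 in library 1 and 5.16 in library 2 over the 86 genes. The same medians were 1.31 and 1.55 over all protein-coding genes, and 3.13 and 3.47 over the 13956 genes open in both libraries. Ribosomal protein genes therefore stood above the middle of the open genes, at a median percentile of 83.4 in library 1 and 82.7 in library 2 among all protein-coding genes. Mitochondrial ribosomal protein genes had lower medians of 3.80 and 4.31, and proteasome genes of 4.45 and 4.46. In the top 10% of all genes in both libraries were 23 of the 86 ribosomal protein genes, 26.7%, where 8.49% of all protein-coding genes were, and 17 of 78 mitochondrial ribosomal and 6 of 40 proteasome genes.

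**Figure D1:**
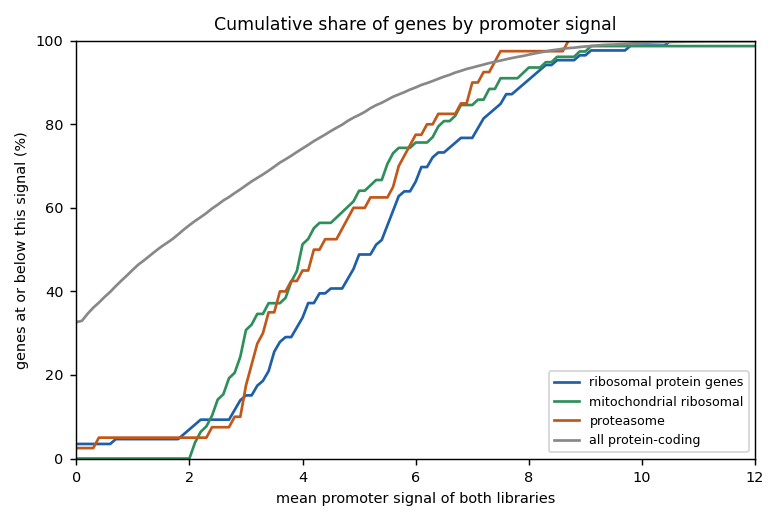
Cumulative share of genes (percent, y axis) with a mean promoter signal of both libraries at or below the value on the x axis, for the 86 ribosomal protein genes, 78 mitochondrial ribosomal protein genes, 40 proteasome genes and all 21938 protein-coding genes. The line of the ribosomal protein genes lies to the right of the others over most of its range, and that of all protein-coding genes starts high because a gene without a peak has the value 0.

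Core genes were not equally open. The highest mean signal among them was 5.75 times the lowest, 61 of 77 lay above the median of all open genes in both libraries, and 25 had signals above 6 in both. The order changed in small steps: among all 83 open genes, paralogs and Rps19bp1 included, in 77 of 82 neighbouring pairs in the order of mean signal the ranges of the 2 libraries overlapped, so most neighbours do not differ beyond their spread. The median was 5.04 and 5.19 for large subunit genes and 5.32 and 5.28 for small subunit genes, in library 1 and library 2. Large subunit genes had the lower median in both libraries. Averaged over the libraries, that order turns round once genes that share their window with another gene's start are left out. The large subunit median is then 0.447 higher.

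**Figure D2:**
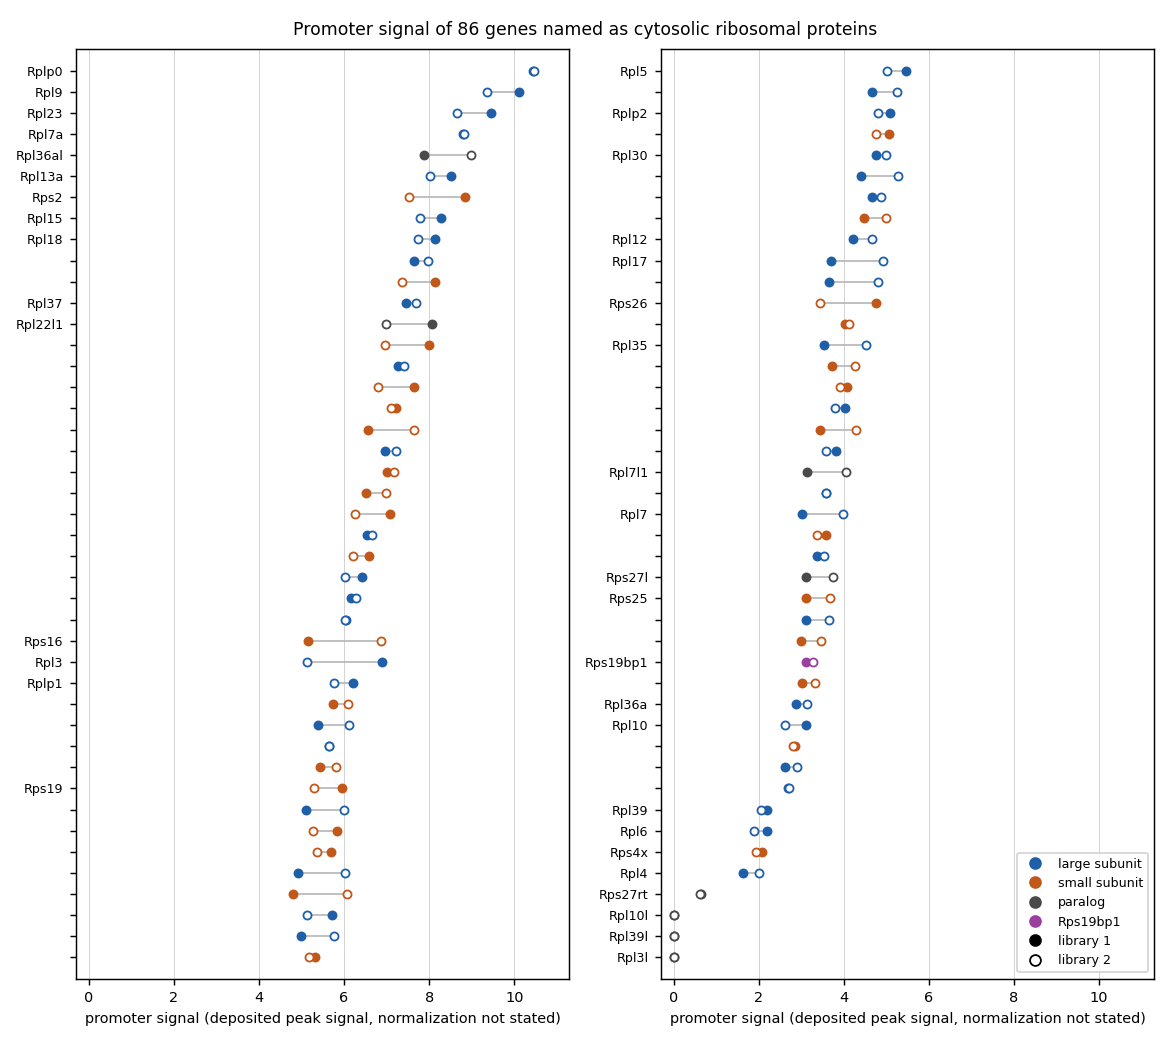
Promoter signal (x axis, deposited peak signal) of each of the 86 genes in order of mean signal, with names at those singled out in the text, filled circles for library 1, open circles for library 2 and a grey line between them. Colours separate large subunit, small subunit and paralog genes and Rps19bp1. The signals run between 0 and 10.5, and the circles of a gene lie close together beside the range over genes.

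At the top of the order stood the stalk gene Rplp0, on chr5:115559467-115563727 of mm10, with 10.5 in library 1 and 10.5 in library 2, a mean of 10.5 ± 0.0163 (SD, n = 2). It lay at percentile 99.5 in library 1 and 99.8 in library 2. The rest of the stalk and its base was lower: Rplp1 had 6.21 and 5.75. Rplp2, its partner in the stalk dimers that recruit translation factors, had 5.08 and 4.81. Rpl12, which sits at the stalk base, had 4.21 and 4.66. Of the 4, only Rplp0 was in the top 10% of all genes in both libraries.

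Rpl9, whose protein lies near the factor-binding face of the large subunit, had 10.1 in library 1 and 9.36 in library 2. Rpl23 had 9.45 and 8.66, and Rpl7a had 8.80 and 8.82. Rpl13a, a large subunit protein known in human monocytes for a second role in translational silencing, had 8.52 and 8.03. Rpl15, a large subunit protein, had 8.28 and 7.78. Each of these lay above percentile 96 of all protein-coding genes in both libraries.

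Of the small subunit, Rps2, a protein at the mRNA entry channel, had the highest mean signal, with 8.85 in library 1 and 7.54 in library 2. Its entry-side partners were lower: Rps3 had 5.06 and 4.76, Rps15 had 4.07 and 3.90, Rps27a, made as a fusion with ubiquitin, had 3.43 and 4.29, and Rps23, which reaches the decoding site, had 2.84 and 2.81. Genes for the platform, where mRNA leaves the subunit, were mostly higher, with a median of 6.12 in library 1 and 6.53 in library 2 over 6 genes against 4.07 and 4.29 over these 5. Rps3a1 had 6.55 and 7.65, Rps28 had 6.51 and 6.97 and Rpsa, which also serves as a laminin receptor at the cell surface, had 5.73 and 6.09. Others of the platform overlapped the entry-side genes, with 3.72 and 4.25 at Rps14 and 4.75 and 3.43 at Rps26.

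The proteins next to the peptidyl transferase centre, where peptide bonds form, had a median of 3.46 in library 1 and 3.10 in library 2. Rpl3 had 6.88 and 5.14, Rpl8 had 3.82 and 3.58, Rpl10 had 3.10 and 2.62, and Rpl4, whose extended loop reaches into the exit tunnel, had 1.63 and 2.00. Genes for the rim of the exit tunnel spread widely: Rpl31 had 7.27 and 7.41 and Rpl26 had 6.96 and 7.23, while Rpl39 had 2.20 and 2.06. Over all 8 rim genes the median was 3.63 and 4.71. The ranges of these lists overlapped in both libraries, although their medians differed. In library 1 signals ran from 2.84 to 8.85 on the entry side and from 3.72 to 8.14 on the platform. They ran from 1.63 to 6.88 next to the peptidyl transferase centre and from 2.20 to 7.27 at the tunnel rim. The lists are short, and a link between signal and position on the ribosome was not tested.

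Rpl5 and Rpl11, which with Mdm2 form the sensor of failed ribosome assembly, had 5.47 and 5.02 at Rpl5 and 4.02 and 3.78 at Rpl11. Genes whose human counterparts are mutated in Diamond-Blackfan anaemia, a failure of red cell formation, numbered 19. Their median was 5.47 in library 1 and 5.28 in library 2, beside 5.10 and 5.27 for all core genes. In the top 10% in both libraries were 7 of the 19, 36.8%, beside 27.3% of core genes and 8.49% of all protein-coding genes. Rps19, mutated most often in that disease, had 5.96 and 5.28 with the widest peak of the 86 genes in both libraries, 700 bases in library 1 and 580 in library 2, beside a median width of 220 bases in each.

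At the low end of the core genes were Rpl4, Rps4x, Rpl6 and Rpl39. Rps4x, a small subunit protein encoded on the X chromosome, had 2.06 in library 1 and 1.94 in library 2, Rpl6, of the large subunit, had 2.19 and 1.89, and Rpl39, an X-linked protein of the exit tunnel, had 2.20 and 2.06. The strongest peak of Rpl4 was centred at -414.5 bases from its start in library 1 and at -454.5 bases in library 2, and its window also held the start of Zwilch, a kinetochore gene. Rps4x lay at percentile 58.1 in library 1 and 53.7 in library 2, so even the low end of the core genes was above the median of all protein-coding genes.

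All 4 X-linked core genes had signals below the median of the open genes of the genome in both libraries. Beside Rps4x and Rpl39 these were Rpl10, with 3.10 and 2.62, and Rpl36a, a large subunit protein, with 2.87 and 3.12. Their medians were 2.53 (library 1) and 2.34 (library 2), against 5.32 and 5.28 for the 73 autosomal core genes. Among all genes open in both libraries the median was 1.67 and 1.75 for 461 genes on the X chromosome and 3.23 and 3.58 for 13495 on autosomes, so X-linked core genes were above the median of X-linked genes, and the part that the chromosome plays in their low signals was not tested.

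The 8 paralogs fell into open and closed promoters. Rpl36al, an autosomal copy related to the X-linked Rpl36a, had 7.87 in library 1 and 8.98 in library 2, more than Rpl36a itself, and its window also held the start of Mgat2. Rpl22l1, the paralog of Rpl22, had 8.06 and 6.99. Rpl7l1 had 3.13 and 4.04, and Rps27l, a p53-responsive paralog of Rps27, had 3.11 and 3.74. Rps27rt, a retrocopy of Rps27, had 0.633 and 0.604, from a peak centred at -431.5 bases from its start in library 1 and at -419.5 bases in library 2.

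The closed paralogs were Rpl3l, which replaces Rpl3 in heart and skeletal muscle, and Rpl10l and Rpl39l, which serve the testis. Each had a signal of 0, 0 footprints and 0 bases with a false discovery rate under 0.05 in both libraries. The parents of these genes, Rpl3, Rpl10 and Rpl39, were open. Their promoters differed in CpG content: Rpl3l held 2 CpG in 300 bases, an observed over expected ratio of 0.0892, while Rpl10l held 13 with a ratio of 0.643 and Rpl39l held 17 with 0.836. The open paralog promoters of Rpl36al and Rpl22l1 held 42 and 30 CpG, with ratios of 1.14 and 1.16. The other open paralogs overlapped the closed ones, with 24 CpG and a ratio of 0.767 at Rps27l, 16 and 0.683 at Rpl7l1, and 9 and 0.633 at Rps27rt.

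Rps19bp1, the gene that matches the naming rule without coding for a ribosomal protein, had 3.10 in library 1 and 3.26 in library 2, below the median of the core genes. Rps19bp1 also had 5 footprints in library 1 and 3 in library 2.

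Most copies of these genes in the genome are pseudogenes. Of 283 annotated pseudogenes named after these genes with "-ps", 8 had a peak within 500 bases in both libraries, a share of 2.83%, and 271 had one in neither. Among the 276 that lay more than 1000 bases from any protein-coding start, 6 were open in both, 2.17%. Those with a peak were low, at medians of 0.681 (library 1) and 0.678 (library 2). The highest, Rpl29-ps2, had 3.78 and 3.60 and lay 160 bases from a protein-coding start. Pseudogene copies resemble the exons of their parents, and the handling of reads that fit several copies was not given in the sources used here.

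Both libraries ranked the genes alike. Spearman's rho between the libraries was 0.95 over the 83 open genes, beside 0.98 over 13956 open genes of the genome, as a description with no test. The median log2 ratio of library 1 over library 2 was -0.02 at the 83 genes and -0.11 over all open genes, and the median absolute log2 ratio was 0.11 at the 77 core genes and 0.19 over all open genes. Library 1 was higher at 37 of the 83 genes, where it was higher at 31.9% of all open genes. No ribosomal protein gene differed more than 1.5-fold between the libraries, where 6.34% of all open genes did and 0.537% differed more than 2-fold. The same held for the 38 proteasome genes open in both libraries, and 3 of 78 mitochondrial ribosomal protein genes, 3.85%, differed more than 1.5-fold.

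The largest ratio was at Rps26, which encodes a protein beside the mRNA exit, with 4.75 in library 1 and 3.43 in library 2, a log2 ratio of 0.47. Rpl3 had a log2 ratio of 0.42 and Rps16, a small subunit protein near the P site, one of -0.42, from 5.15 in library 1 and 6.87 in library 2. Rpl17, at the exit tunnel, had 3.69 and 4.91, a log2 ratio of -0.41. Rpl7, of the large subunit, had 3.02 and 3.97, a log2 ratio of -0.39. These ratios ran in both directions.

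The strongest peaks sat close to the starts and at the same place in both libraries. They overlapped between the libraries at 76 of 77 core genes. The exception was Rpl39, with 3 peaks in its window in each library and its strongest peak centred at -118.5 bases from the start in library 1 and at 141.5 bases in library 2. The peak centre lay within 100 bases of the principal start, the start of the APPRIS principal transcript, at 58 of 77 core genes in library 1 and 57 in library 2. The median centre was at -36.5 bases from that start in library 1 and at -17.5 bases in library 2. The window held a single peak at 39 core genes in library 1 and at 50 in library 2. It held more than 1 at 38 and 27 core genes, beside 7966 and 8258 of the 13956 genes open in both libraries. Windows of those open genes were longer, with a median of 2341 bases against 2060 for core genes. Peak overlap and distance from the start were not counted over all open genes.

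At a few genes the peak lay nearer to the RefSeq start than to the principal one. Rpl35, of the exit tunnel, had its peak centred 443.5 bases after the principal start in both libraries, and the RefSeq start lies 493 bases after it. Rps25, of the small subunit head, had its peak centred 491.5 bases after the principal start in library 1 and 481.5 bases after it in library 2, with the RefSeq start 575 bases after it. Rplp2 had its peak 230.5 bases after in both libraries with the RefSeq start 281 bases after, and Rps10 had its peak 254.5 bases after in both with the RefSeq start 301 bases after. In all 4 genes the peak lay less than 100 bases upstream of the RefSeq start. The windows of Rpl35, Rps25 and Rps10 also held the start of another protein-coding gene, and which gene the peak belongs to was not tested.

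Starts of other genes also lay in some of these windows, and the share over all protein-coding genes was not counted. Of the 86 windows 39 held the start of another gene, 17 of them that of another protein-coding gene, and the strongest peak may there belong to the neighbour. Median signal was 5.73 (library 1) and 6.03 (library 2) for the 39, against 4.66 and 4.81 for the other 47, which include the 3 closed paralogs. Among core genes alone the medians were closer, at 5.47 and 5.27 with such a start against 5.03 and 5.19 without. Ribosomal protein genes also carry small nucleolar RNAs, which guide modification of ribosomal RNA, in their introns. The 30 genes that held 58 such RNAs had medians of 5.39 and 5.16, beside 4.91 and 5.27 for the 47 core genes without. Hosts were thus higher in library 1 and lower in library 2. The share of such hosts among all protein-coding genes was not counted.

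Footprints were found in the windows of 83 of 86 ribosomal protein genes in both libraries, where 61.5% of all protein-coding genes had one in both. These 83 were the open genes, and among all genes open in both libraries 96.7% had a footprint in both. The median number per window was 6 in library 1 and 7 in library 2, the same as over all genes open in both libraries. Core genes had between 1 and 13 in library 1 and between 3 and 14 in library 2. The footprints within 500 bases of the principal start, 512 in library 1 and 541 in library 2, had a median length of 11 bases in both, and the longest was 49 bases in library 1 and 51 in library 2.

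Rpl5 had 13 footprints in library 1 and 9 in library 2, and Rps19 had 10 and 12, the highest totals. Rpl18, Rpl37, Rpl7 and Rpl30, all of the large subunit, were tied next: Rpl18 had 10 and 11, Rpl37 had 11 and 10, Rpl7 had 10 and 11, and Rpl30 had 9 and 12. Rps4x had the fewest among open core genes, with 1 in library 1 and 3 in library 2. Footprint number followed the signal only in part: Spearman's rho over the 83 open genes was 0.31 in library 1 and 0.31 in library 2, beside 0.50 and 0.39 over all 13956 open genes. Both measures come from the cuts of the same library and depend on its depth, and windows differ in length.

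**Figure D3:**
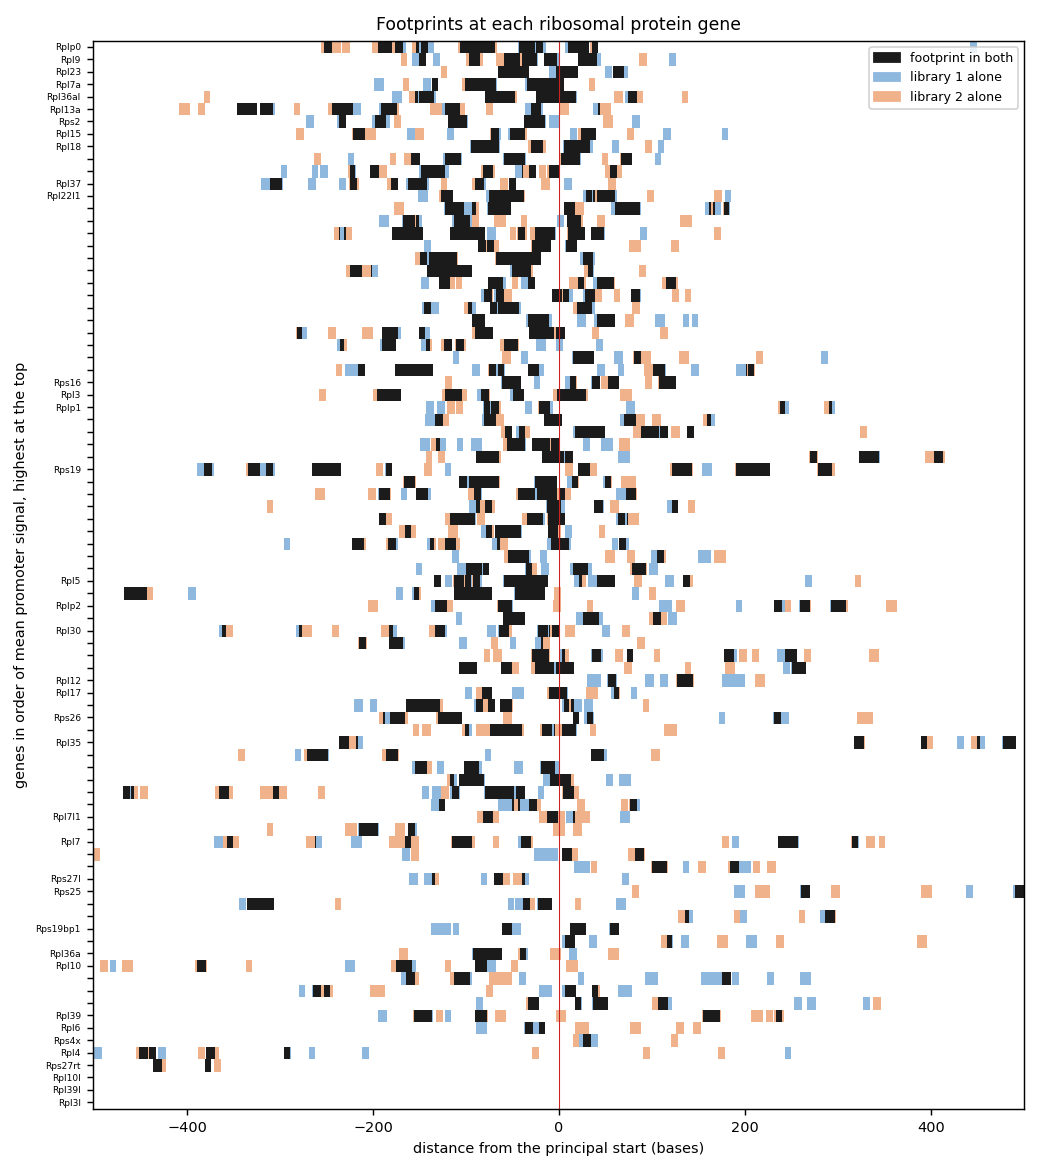
Footprints within 500 bases of the principal start (x axis, distance in bases) of each of the 86 genes, in order of mean promoter signal with the highest at the top and names at those singled out; black marks bases in a footprint of both libraries, blue those of library 1 alone and orange those of library 2 alone. Most black marks lie shortly before the start line, a few genes such as Rpl35 and Rps25 have theirs well after it, and Rpl3l, Rpl10l and Rpl39l at the bottom have none.

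Protected bases gathered just before the start. From 50 to 1 bases before the principal start 31.2% of bases in library 1 and 29.0% in library 2 lay in a footprint at the 86 genes, the 3 closed ones included, against 22.9% and 24.3% over all genes open in both libraries. In the 50 bases that begin at the start the shares were 24.9% and 25.2%, against 16.2% and 17.6%. The next 50 bases held 11.6% and 14.9%, against 10.1% and 12.2%, so the shares of the gene sets were closer there. Bases with a false discovery rate under 0.05 covered a median of 870.5 bases per window in library 1 and 921.5 in library 2. Over all open genes the medians were similar, at 860 and 946 bases. The median share of the window was 43.3% in each library, against 33.3% and 37.4% over all open genes. Windows of open genes were longer, with a median of 2341 bases against 2023, so the share differed more than the bases did. Mitochondrial ribosomal protein genes had shares of 50.8% and 54.8%, and proteasome genes 30.4% and 32.2%.

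**Figure D4:**
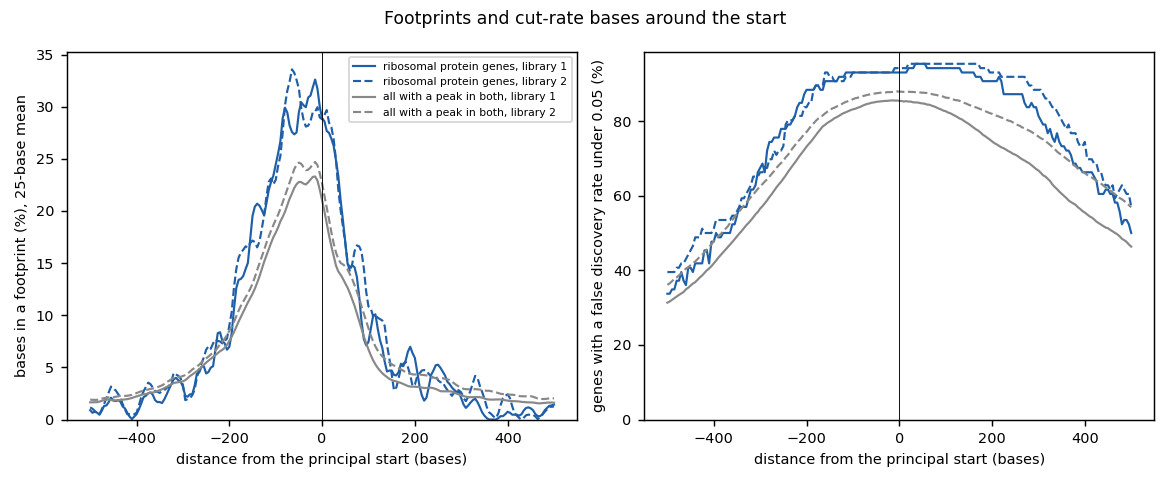
Share of bases in a footprint (left, percent, 25-base mean) and share of genes with a cut-rate false discovery rate under 0.05 (right, percent) by distance from the principal start in bases, for the 86 ribosomal protein genes (blue) and all genes open in both (grey); solid lines are library 1 and dashed lines library 2. In the 50 bases before the start the blue lines average 31.2% and 29.0% of bases in footprints and the grey lines 22.9% and 24.3%.

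Promoter sequence was read from the RefSeq table on GRCm38.p6, from 250 bases before to 50 bases after the listed start, and 66 of the 86 genes had an entry. Among the 20 without were Rpl17, Rpl21, Rpl23a, Rpl29, Rpl3, Rpl30, Rpl32, Rpl36, Rpl7, Rpl8, Rplp1, Rps14, Rps20, Rps27a and Rps29. The 57 core promoters had a median GC content of 57.7% and a CpG ratio of 0.903, against 61.3% and 0.767 for 10601 promoters of genes open in both libraries. They thus had a lower median GC content than open promoters in general, and their CpG ratio, although below 1, was nearer to 1. Both traits were shared by mitochondrial ribosomal promoters, at 58.0% and 0.818, and by proteasome promoters, at 57.3% and 0.793. Among core promoters GC content ran between 40.7% at Rpl4 and 72.3% at Rps10. Footprints covered 23.0% of these promoter bases in library 1 and 23.5% in library 2, against 16.3% and 17.6%, and of the bases covered in core promoters 73.1% of those in library 1 and 71.4% of those in library 2 were shared.

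The start base of many of these genes lies in a run of pyrimidines. A run of at least 7 pyrimidines over the start base was present at 17 of 57 core promoters, 29.8%, where 5.12% of promoters of open genes and 4.68% of all promoters had one. It was present at 1 of 69 mitochondrial ribosomal and 1 of 33 proteasome promoters, and at 2 of 8 promoters, 25.0%, of the other genes with TOP mRNAs. The stricter form, a C at the start base followed by at least 4 pyrimidines, was at 12 of 57, 21.1%, against 2.21% of all promoters and 1 of the 8 other TOP genes. The table gives 1 start per gene, and a start placed a few bases off would miss the run. For 6 of the 17, chosen to cover both subunits and the stalk, the sequence from 12 bases before to 11 bases after the start base is shown with the run in capitals.
Rpl7a (chr2:26910795-26910818, + strand): CCCTCTTCTTTCTTTCTCCagcag
Rpl15 (chr14:18270975-18270998, - strand): ggagaaagCCTTCTTCCTTTCCTC
Rpl35 (chr2:39005120-39005143, - strand): ccccgCCCTTTCCTCTTTCTCTCg
Rplp2 (chr7:141447639-141447662, + strand): gtcagcgTCTTCCTTTCgccgccg
Rps18 (chr17:33955654-33955677, - strand): gtcacttccgCTCTCTCTTCCaca
Rps6 (chr4:86857356-86857379, - strand): cggaagtcgggCCTCTTTTTCgtg

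The full run is 21 bases at Rpl7a, where it begins before the printed stretch, 18 at Rpl35 and 17 at Rpl15, where it ends after that stretch, and the start base lies inside the capitals in each line. In Rps6, the small subunit protein that S6 kinases phosphorylate in neurons after mTOR activation, the run is 10 bases.

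Each motif was searched on both strands of the 300 bases: GGGCGG of Sp and Klf factors, CCGGAAG of ETS factors, AAGATGG of YY1, TGACGTCA of CREB and ATF, CACGTG of E-box factors, CCAAT of NF-Y, ACTACA as part of the ZNF143 site, the TATA box spelled TATAAA, the palindromic element bound by BANP and the NRF1 consensus, of which matches are printed below. The 57 core promoters held 146 matches, of which 4 overlapped a match of another motif. Most frequent was GGGCGG, at 34 of 57 core promoters, 59.6%, against 66.0% of promoters of open genes. CCGGAAG was at 23, 40.4%, against 17.6%, and the BANP element at 6, 10.5%, against 1.00%. TGACGTCA was at 5, 8.77%, against 3.27%, and AAGATGG at 8, 14.0%, against 7.07%. CCAAT was at 18, 31.6%, against 38.4%, and ACTACA at 10, 17.5%, against 10.3%. The E-box motif, the TATA box and the NRF1 motif were at 5 core promoters each, 8.77%, against 10.2%, 6.75% and 10.4%.

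CCGGAAG was also frequent in other housekeeping sets, at 25 of 69 mitochondrial ribosomal promoters, 36.2%, and 11 of 33 proteasome promoters, 33.3%. AAGATGG was more frequent in both sets than in core promoters, at 13 of 69, 18.8%, and 6 of 33, 18.2%. ACTACA was at 9 of 69 and 3 of 33 of these promoters, and TGACGTCA at 2 of 69 and 0 of 33. The BANP element was at 1 of 69 and 1 of 33.

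**Figure D5:**
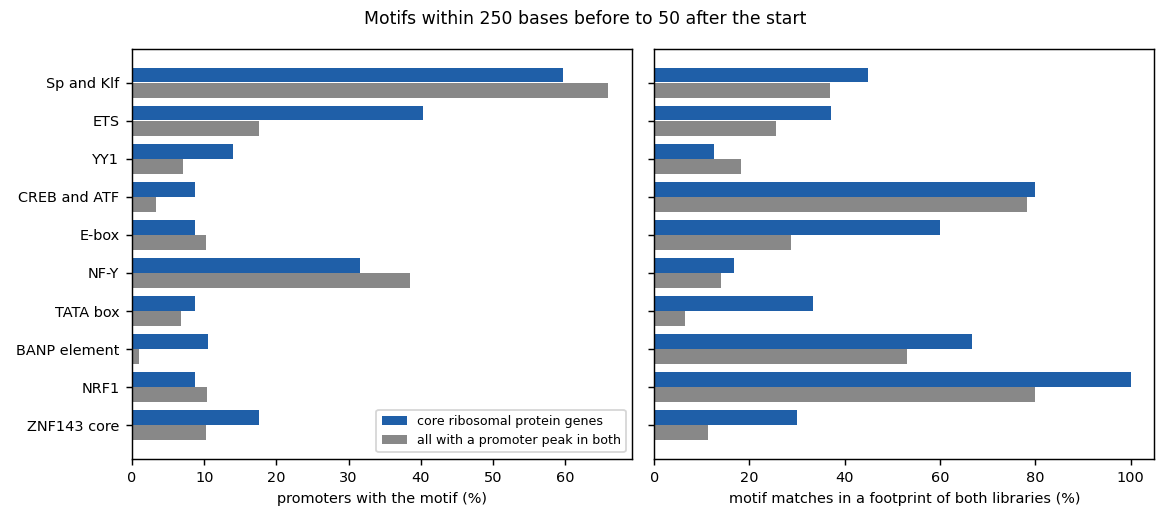
Share of promoters with each motif (left, percent) and share of its matches that lay in a footprint of both libraries (right, percent), for the 57 core ribosomal protein promoters (blue) and the 10601 promoters of genes with a peak in both libraries (grey). On the left the ETS motif reaches 40.4% in blue and 17.6% in grey and the BANP element 10.5% in blue and 1.00% in grey, and on the right the NRF1 motif reaches 100% from 6 matches; several blue bars rest on 5 to 8 matches.

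Whether a motif was protected differed by motif. A match counted as protected where its middle base lay in a footprint of both libraries. All 6 matches of the NRF1 motif in core promoters were protected, beside 79.9% of the matches in promoters of all open genes. They are shown with 7 bases on each side and the motif in capitals, on the strand of the gene.
Rpl37a (chr1:72711260-72711283, + strand): taaaaccGCGCATGCGCattgcgt
Rpl10a (chr17:28328554-28328577, + strand): tatttgaGCGCATGCGCaaagcgc
Rps16 (chr7:28350696-28350719, + strand): actcaatGCGCCTGCGCagaccct
Rps15 (chr10:80292431-80292454, + strand): gataactGCGCAAGCGCagcccgt
Rpsa, upstream match (chr9:120127605-120127628, + strand): tgcagccGCGCAGGCGCgggccac
Rpsa, downstream match (chr9:120127670-120127693, + strand): tgaatctGCGCGTGCGCcagaggc

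Rpl37a is a large subunit protein, Rpl10a lies in the mobile L1 stalk of the large subunit, and Rps15 is at the head of the small subunit. Their matches lay across the table's start at Rpl10a and after it at Rpl37a, Rps15 and Rps16, and 4 of the 5 genes had signals between 4 and 7 in both libraries.

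The BANP element was protected at 4 of 6 matches, beside 53.0% of matches over all open genes. The protected matches are shown because the motif was the rarest of those searched over all promoters, at 0.714%. They begin at -51 from the table's start at Rps6 and as near as -8 at Rps19. At Rps28 and Rpl12, which also hold the motif, the match was not protected in both libraries.
Rpl26 (chr11:68901533-68901556, + strand): ccgagacTCTCGCGAGAtctcgcg
Rpl10a (chr17:28328527-28328550, + strand): gggcaacTCTCGCGAGAacgcggg
Rps19 (chr7:24884577-24884600, + strand): tccgaaaTCTCGCGAGActcgacg
Rps6 (chr4:86857402-86857425, - strand): cggctgtTCTCGCGAGAacttaga

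TGACGTCA was protected at 4 of 5 matches, beside 78.2% over all open genes, and the exception was Rpl26. Its protected matches were all upstream of the start.
Rpl18 (chr7:45717985-45718006, + strand): gctcatgTGACGTCAcccgtgc
Rpl27a (chr7:109519091-109519112, + strand): ggagccgTGACGTCAggagccc
Rpl13 (chr8:123102319-123102340, + strand): gttcgcgTGACGTCActtccct
Rps9 (chr7:3703977-3703998, + strand): tgcgtgaTGACGTCActacaag

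CCGGAAG was protected at 10 of 27 matches, 37.0%, beside 25.7% over all open genes. The examples below are from Rpl37, which had 11 footprints in library 1 and 10 in library 2, from Rpl11, from Rps3a1 and from Rps21, whose promoter held a protected match at 2 places.
Rpl37 (chr15:5116583-5116603, + strand): agacccgCCGGAAGtagtttc
Rpl11 (chr4:136053374-136053394, - strand): cacggggCCGGAAGtctccct
Rps3a1 (chr3:86142664-86142684, - strand): cttaaagCCGGAAGggcgaaa
Rps21, upstream match (chr2:180257284-180257304, + strand): ctttgcaCCGGAAGcggaagt
Rps21, downstream match (chr2:180257346-180257366, + strand): ccctgacCCGGAAGcacttac

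GGGCGG was protected at 22 of 49 matches, 44.9%, beside 37.0%. CCAAT was protected at 4 of 24 matches, 16.7%, beside 14.0%, and AAGATGG at 1 of 8, 12.5%, beside 18.1%. CACGTG was protected at 3 of 5, in Rpl23, Rpl13a and Rpl34, beside 28.8%. TATAAA was protected at 2 of 6, in Rplp0 and Rps2, beside 6.52%, and ACTACA at 3 of 10, beside 11.4%. A match is a description of letters and names no bound protein, and no match says only that these letters were not in the window.

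Genes outside the naming rule that belong to the same supply line were open as well. Of ribosomal proteins under other names, Fau, the precursor of S30, had 8.19 in library 1 and 8.70 in library 2, and Rack1 had 3.38 and 3.74. Other genes with TOP mRNAs, mainly translation factors, were open at 14 of 14 with medians of 7.12 and 6.83, above those of the core genes. In the top 10% in both libraries were 8 of 14, 57.1%, beside 27.3% of core genes and 8.49% of all protein-coding genes. Eef1g had 9.04 and 8.32, Npm1 had 9.21 and 8.53, and Eef1a1, the elongation factor of most tissues, had 4.56 and 4.11. Genes for ribosome assembly and rDNA transcription were open at 20 of 20 with medians of 4.84 and 5.40, with 8.60 and 9.60 at Nop56, a core protein of snoRNA particles, and 2.03 and 2.24 at Pes1, a factor of large subunit assembly.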

How the data were processed

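DNase-seq was done on 2 libraries of 1 group, with library numbers taken from the replicate numbers of the labels. Per the deposited readme files (file headers), peaks, footprints and per-base tables on mm10 came from each library's own alignments. The aligner, the peak caller and how differences between the strains were treated were not given in the sources used here. Column 7 of the peak lists is a signal deposited by the authors with no stated normalization. A q-value (false discovery rate) per run of bases stands in the deposited cut-rate tables, and every deposited footprint carries the q-value 0.01.

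From these, the signal of the strongest peak within 500 bases of any GENCODE M21 start was taken per gene and library, with footprints counted by their middle. Percentiles were over 21938 protein-coding genes. Computation used pandas 2.3.3 with numpy 2.4.6 on Python 3.11.15, scipy 1.17.1 in the rank correlations and matplotlib 3.10.9 for plots, and the overlap code was tested on simulated data. With 1 group no contrast exists, so values are described without tests. The members, lists and motifs were chosen with earlier results of these data known.

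Named genes were the 8 highest and 8 lowest by mean signal, the 5 largest ratios between the libraries, the 4 with most footprints with ties, those without peaks or footprints, and the paralog, stalk, X-linked and Rps19bp1 lists. Others were named as members of the lists of ribosomal regions or for a motif or start position, after their values were seen. The listed paralog Rps4l is annotated as a pseudogene and was left out. Of the 17 genes with a pyrimidine run and the genes with a protected motif, a selection is printed. A few members and list genes enter the counts but are not reported by name here.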

Additional observations from a re-analysis of the deposited data

How the results depend on the processing

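Of 62 alternatives over 9 results, 42 stayed within the limit set for the result and 20 moved beyond it. The limit was the spread between the libraries for medians and their differences, and 1.5 times for counts. For the log2 ratio it was a set fraction of its size, and for the pseudogene share a binomial interval around it. Among the 42 were all those of the counts of open genes and of genes with footprints. Settings that leave out a library were also among the 42. They cannot move a value beyond that spread by construction, so they say nothing on stability. The median signal was 4.89 from the gene's own 5 prime end, 4.73 without genes sharing a window and 5.84 for summed peaks, and 5.03 to 5.16 leaving out a library. The median percentile was 82.5 with 2000 bases, 83.7 without paralogs and Rps19bp1, 80.3 without genes sharing a window and 79.4 for summed peaks, and 82.7 to 83.4 leaving out a library. Median footprints were 5.5 with 250 bases and 7.25 with 2000, and 6 to 7 leaving out a library. Median bases under the false discovery rate were 643.5 with 250 bases, 997.5 with 2000, 801 from the 5 prime end, 782 under 0.005 and 729 under 0.001, and 870.5 to 921.5 leaving out a library. Large minus small subunit median signal, -0.189 in all, was -0.0544 from the 5 prime end, 0.447 without genes sharing a window and -0.347 for summed peaks, and -0.282 to -0.0956 leaving out a library. The share of open pseudogenes was 1.06% with 250 bases and 1.06% with the shorter list, and 9.54% with 2000 bases. Wider windows take in more sequence by construction; the cause of the other moves was not tested. No paired analysis was possible because the samples form 1 group. The depth is unknown, so a closed promoter says only that no peak was listed.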
